A study of Mus musculus with 19 samples.

Results

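Cytochrome P450 families 1 to 3 were examined in the livers of male C57BL/6 mice, 10 to 12 weeks old, sampled 2 h after an 85% liver resection. A gene was taken as a member if its symbol begins with Cyp1, Cyp2 or Cyp3 followed directly by a letter, and only probe sets that carry 1 symbol were used. That gave 43 of the 18193 genes on the Affymetrix array, and 29 of them were among the 8515 genes whose log2 value was over 4 on at least 4 arrays and which were therefore tested. All 19 mice were resected, and they fall into 4 groups by genotype. There were 5 wild-type mice (WT), 6 mice without Ager (Ager null), 4 without Myd88 (Myd88 null) and 4 without both genes (Ager null, Myd88 null, called double null here). The labels do not say how the null alleles were made or in which cells they act. Unresected livers were not analysed here, and every difference is between genotypes after resection.

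Cytochrome P450 enzymes are haem proteins of the endoplasmic reticulum that add oxygen to drugs, steroids, bile acids and fatty acids, with electrons from cytochrome P450 reductase and cytochrome b5. Families 1 to 3 hold most of the drug-metabolizing enzymes of the liver, and hepatocytes around the central vein carry most of them. Many are induced through a sensor of foreign compounds: the aryl hydrocarbon receptor (AhR) for Cyp1a genes, the constitutive androstane receptor (CAR, gene Nr1i3) for Cyp2b genes and the pregnane X receptor (PXR, gene Nr1i2) for Cyp3a genes. Inflammatory cytokines are known to lower many of them. Ager encodes RAGE, a receptor for damage-associated ligands, and Myd88 encodes the adaptor of most Toll-like receptors and of the IL-1 receptor.

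Values are the log2 expression values that the authors deposited, made with GCRMA, and a difference of 1 on this scale is a doubling. Correlations between arrays were 0.948 to 0.993 over the tested genes, and Myd88 null 4 had the lowest median correlation with the others, 0.965. Myd88 was at or over 5.24 on all arrays of the groups that keep it and at or under 3.86 on all arrays of the groups that lack it, while Ager was under log2 4 on all 19 arrays and checks no label. Each of 13 hepatocyte markers exceeded log2 4 on every array, and of 12 kidney and glomerulus markers 0 did, although the extraction text speaks of glomeruli. Of 2 neutrophil markers, 1 cholangiocyte marker and 1 kidney marker that were tested, limma called 0 in the 7 comparisons. Of 13 hepatocyte markers it called 0 as well. The share of all genes called ran from 0.153% to 2.44%, so no call in lists this short is near the background. Kupffer cell markers, and endothelial and stellate cell markers, among which some were called, are described below. The sample descriptions carry an S number of unstated meaning. All 6 Ager null arrays have an S number of 13 or more, with only WT 5 and Myd88 null 4 beside them, so this number and the loss of Ager alone can hardly be told apart. Fewer hepatocytes and less RNA per hepatocyte cannot be told apart in whole liver.

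Most members were clearly detected. Of the 43 members, 26 were over log2 4 on all 19 arrays, 12 on none and 5 on some, and 17 were over log2 12 on all arrays. By subfamily, the tested members were 2 of 2 Cyp1a genes, 1 of 4 Cyp2b, 9 of 11 Cyp2c, 5 of 8 Cyp2d, 3 of 5 Cyp2j and 4 of 5 Cyp3a, with Cyp2a12, Cyp2e1, Cyp2f2, Cyp2r1 and Cyp2u1. The 14 members under the filter were Cyp1b1, Cyp2b9, Cyp2b13, Cyp2b19, Cyp2c39, Cyp2c65, Cyp2d12, Cyp2d34, Cyp2d40, Cyp2g1, Cyp2j11, Cyp2j13, Cyp2s1 and Cyp3a16. Cyp2b9, Cyp2b13 and Cyp3a16 are known for higher expression in female liver. Among the members under the filter, Cyp2b9 and Cyp2g1 exceeded log2 4 on some arrays. Cyp2b9 reached 4.12 in Myd88 null 3 and 5.75 in Myd88 null 4 and was at or under 2.35 on the other 17 arrays. Myd88 null 4 is the array least correlated with the others. Cyp2g1 reached 4.14, 4.20 and 4.65 in 3 of the 4 double null livers and was at or under 3.89 elsewhere. In a limma fit without the filter, neither gene passed in any comparison. The adjusted p was 0.187 for Cyp2b9 in Myd88 null minus WT. For Cyp2g1 it was 0.804 in double null minus WT and 0.275 in double null minus Ager null.

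Of the 29 tested members, only Cyp2r1 passed the test, at an adjusted p under 0.05 in limma with Benjamini-Hochberg adjustment over all 8515 genes. It was lower in Ager null than in WT, and its interaction term was above 0. In Ager null against WT, 1 of 29 members was called, lower, where 1.26% of all tested genes were called and 0.423% were called lower. In the interaction, which asks whether loss of Myd88 acts differently with and without Ager, 1 of 29 was called, higher, where 2.41% of all tested genes were called and 0.575% were called higher. In the other 5 comparisons limma called 0 of 29 members, and the shares of all genes called were 0.399% (Myd88 null minus WT), 0.317% (double null minus WT), 2.44% (double null minus Ager null), 0.153% (double null minus Myd88 null) and 1.26% (Ager null minus Myd88 null). With so few genes called in any comparison, 1 call or none among 29 is near the background. At an unadjusted p under 0.05, the members counted 6 of 29 in Ager null minus WT, where the share of all genes was 21.6%, and 4 of 29 in Myd88 null minus WT, where it was 19.6%. They counted 0 in double null minus WT (8.57% of all genes), 5 in double null minus Ager null (22.7%), 2 in double null minus Myd88 null (16.1%), 2 in Ager null minus Myd88 null (15.9%) and 3 in the interaction (27.2%). Nothing in the labels says more than 1 array per mouse was made, and the p-values measure the spread between these samples.

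**Figure D1:**
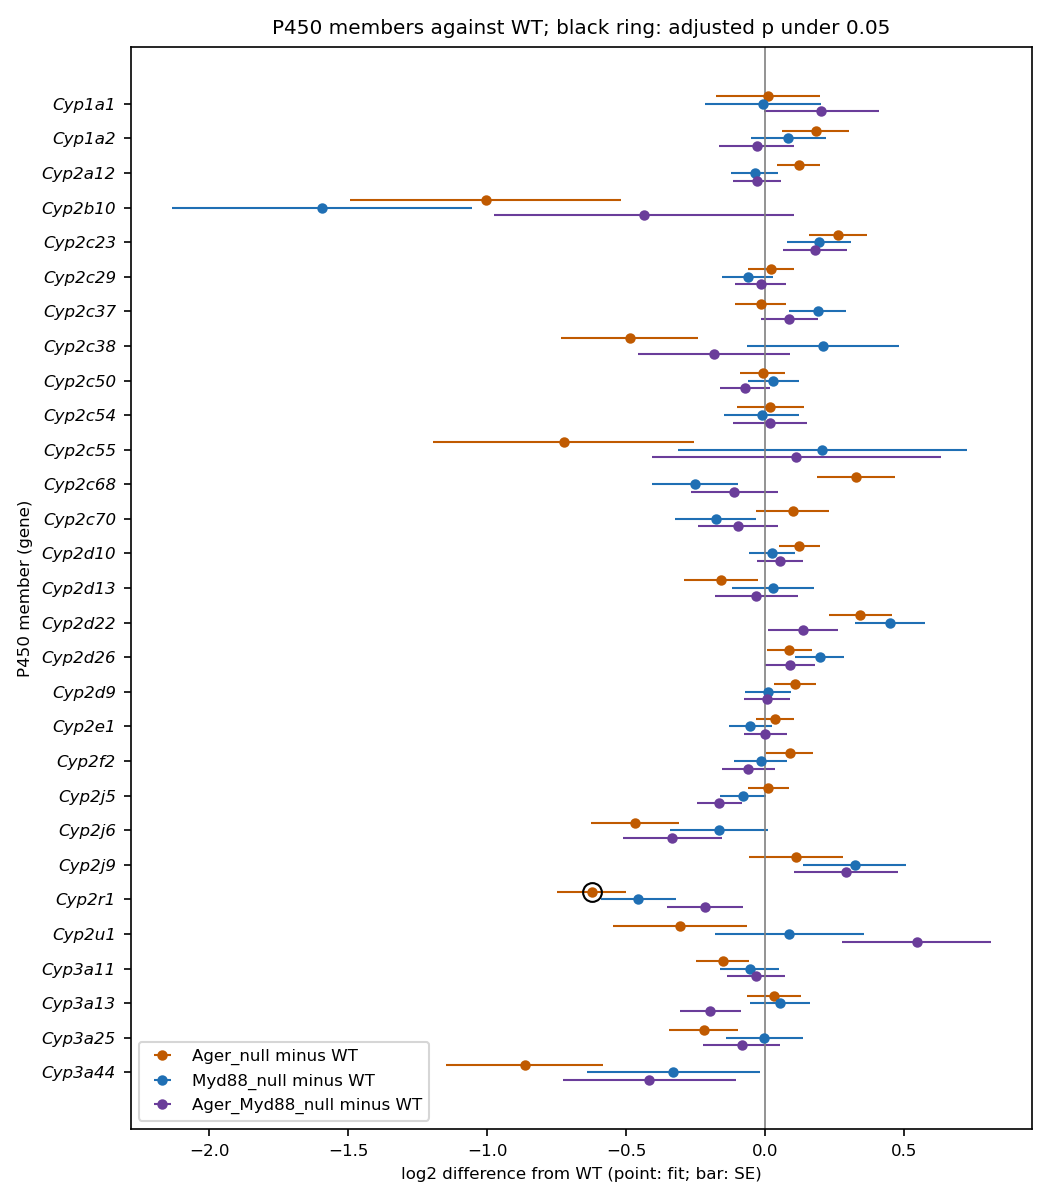
Log2 difference from WT (x axis) of each of the 29 tested members (y axis), with points for the fitted difference and bars for its SE, in Ager null, Myd88 null and double null livers. The ring marks Cyp2r1 in Ager null at -0.62, the call against WT, and Cyp2b10 in Myd88 null lies farthest from 0 at -1.59 without passing the test.

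Cyp2r1 encodes the microsomal hydroxylase that turns vitamin D into its main circulating form, and it stands apart in this family because it does not serve drug metabolism. Its value was 9.71, 9.94, 9.43, 9.60 and 10.01 in the 5 WT livers. In the 6 Ager null livers it was between 8.80 and 9.36, with a median of 9.11. Every Ager null value lay under every WT value, and 1 of 29 members showed such a gap in this comparison, where 3.7% of all genes did. The difference was -0.62 ± 0.12 (log2, SE; adjusted p = 0.0264, limma), a level of 0.649 of WT, with SDs of 0.24 in WT (n = 5) and 0.19 in Ager null (n = 6). In the 4 Myd88 null livers Cyp2r1 was 9.56, 9.33, 9.19 and 9.06, a difference from WT of -0.46 ± 0.14 that did not pass (adjusted p = 0.105, limma). In the 4 double null livers it was 9.46, 9.70, 9.48 and 9.46, which overlaps with WT at a difference of -0.22 ± 0.14 (adjusted p = 0.713, limma). All 4 double null values lay over all 6 Ager null values (0.41 ± 0.13, adjusted p = 0.0954, limma), 1 of 29 members without overlap where 8.39% of all genes had none. The interaction was 0.86 ± 0.19 (adjusted p = 0.0357, limma).

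Both Cyp2r1 calls were lost with the S number range as a block, at differences that were no smaller, and without some single livers. With that block, the difference in Ager null was -0.67 (adjusted p = 0.0696, limma) and the interaction 0.95 (adjusted p = 0.142, limma). Against WT 5 alone, the WT array within the range of the Ager null arrays, the Ager null mean differed by -0.89. WT 5 holds the highest Cyp2r1 value of the WT livers, 10.01, so this difference rests on that array. Against Myd88 null 4, the Myd88 null array in the same range, the Ager null mean differed by 0.05. The Ager null call was lost without WT 2 (adjusted p = 0.0743), WT 5 (0.0906) or Ager null 3 (0.0566), in the same limma fit. The interaction call was lost without WT 2 (0.0632), WT 5 (0.061), Ager null 3 (0.0543), Myd88 null 2 (0.068), Myd88 null 3 (0.0835), Myd88 null 4 (0.0762), double null 2 (0.0505), double null 3 (0.0829) or double null 4 (0.0626).

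The bases before the start of transcription are shown for Cyp2r1, the called member, and for Cyp2b10 and Cyp2c55, the members that varied most within a group. They are the 250 bases upstream of each start in RefSeq (mouse GRCm38.p6), 5′ to 3′ on the gene's strand, so they lie outside the exons. Cyp2r1 is at chr7:114562973-114563222 on the minus strand, Cyp2b10 at chr7:25897408-25897657 on the plus strand and Cyp2c55 at chr19:39006769-39007018 on the plus strand. Capitals mark each match, on either strand, to 1 of 5 short motifs. The TATA box was searched as TATAAA. The core bound by many nuclear receptors was searched as AGGTCA, and the core bound by AhR as GCGTG. The GC box was searched as GGGCGG and the CCAAT box by those letters.
Cyp2r1: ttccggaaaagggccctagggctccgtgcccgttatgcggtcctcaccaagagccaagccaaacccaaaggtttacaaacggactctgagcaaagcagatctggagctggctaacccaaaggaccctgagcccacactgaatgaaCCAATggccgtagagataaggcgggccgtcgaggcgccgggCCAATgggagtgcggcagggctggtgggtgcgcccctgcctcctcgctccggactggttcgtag
Cyp2b10: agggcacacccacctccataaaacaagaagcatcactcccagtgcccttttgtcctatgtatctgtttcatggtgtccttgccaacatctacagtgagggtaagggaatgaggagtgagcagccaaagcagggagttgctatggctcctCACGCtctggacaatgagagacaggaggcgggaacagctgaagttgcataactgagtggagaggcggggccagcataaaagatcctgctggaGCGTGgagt
Cyp2c55: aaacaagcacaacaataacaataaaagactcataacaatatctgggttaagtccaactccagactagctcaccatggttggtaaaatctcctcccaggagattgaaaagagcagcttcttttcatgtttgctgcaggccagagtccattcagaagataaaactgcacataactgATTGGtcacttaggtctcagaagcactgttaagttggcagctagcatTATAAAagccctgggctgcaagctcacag

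The window of Cyp2r1 held CCAAT at bases 105 to 101 and 64 to 60 before the start and no match to the other 4 motifs, and its GC content was 61.6%. That of Cyp2c55 had TATAAA at bases 29 to 24 before the start, the CCAAT box read on the other strand at bases 76 to 72, and a GC content of 42.4%. That of Cyp2b10 had the AhR core at bases 101 to 97 and 9 to 5 and a GC content of 52.8%. RefSeq windows were found for 24 of the 29 tested members. TATAAA was in 14 of these 24 windows and in 12.4% of all 32851 windows of this length. AGGTCA was in 7 of 24 against 14% of all windows, and CCAAT in 11 of 24 against 33.8%. GCGTG was in 4 of 24 (Cyp1a1, Cyp2b10, Cyp2c68 and Cyp2j9) against 28.2%, and GGGCGG in 2 of 24 (Cyp2j6 and Cyp3a11) against 32.7%. The median GC content of the 24 windows was 45%, from 29.6% to 61.6%, against 52.4% for all windows. Cyp2r1 thus has the highest GC content of the 24 and no TATAAA, where most windows of the tested members hold one. Members of a subfamily are neighbouring copies of a gene, so these windows are not independent. A match in letters is a description of the sequence and does not show that a factor binds there.

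Cyp2b10, the liver's main CAR-induced P450, had the largest differences in size. WT livers had 11.79, 11.06, 12.37, 11.42 and 12.03. Myd88 null livers had 9.61, 9.89, 10.24 and 10.82, all under the lowest WT value. The difference was -1.59 ± 0.54 (log2, SE), a level of 0.331 of WT, and did not pass the test (adjusted p = 0.139, limma). In the double null livers Cyp2b10 was 11.60, 11.03, 11.31 and 11.25, each over every Myd88 null value (1.16 ± 0.57, adjusted p = 0.324, limma). It was the 1 of 29 members without overlap in that comparison, where 5.91% of all genes had none, and in Ager null minus Myd88 null 0 of 29 had none, against 3.92%. The Ager null livers spread most, with 9.56, 8.95, 10.52, 12.82, 11.52 and 11.01. This range of 8.95 to 12.82 encloses all WT, Myd88 null and double null values, and the mean difference from WT was -1.01 ± 0.49 (adjusted p = 0.239, limma). The interaction was 2.16 ± 0.75 (adjusted p = 0.0935, limma), and it passed without Ager null 4 (2.58, adjusted p = 0.0386, limma). Over all fits with 1 liver left out, its adjusted p (limma) ran from 0.0386 to 0.16.

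All 3 probe sets of Cyp2b10 gave like values for Myd88 null minus WT, -1.39, -1.43 and -1.59, and for the interaction, 1.89, 1.92 and 2.16. Within the S number ranges 1 to 6, 7 to 12 and 13 to 20, Myd88 null minus WT was -1.67, -1.65 and -1.22 for the probe set used, with 1 or 2 livers a group. The other 2 probe sets are of a type that can also match close relatives of the gene. Of 11 Kupffer cell markers, 10 had a lower mean in Myd88 null than in WT (median -0.74, against 0.06 for all genes). Their summed level (the mean log2 over the list) ranged from 6.39 to 8.47 in Myd88 null and from 7.93 to 8.97 in WT. Limma called 0 of 11 at an adjusted p under 0.05, where 0.399% of all genes were called. At an unadjusted p under 0.05 it was 2 of 11, where the share of all genes was 19.6%. In double null minus Ager null, the other comparison on loss of Myd88, 8 of 11 were higher (median 0.14). Their part in the Cyp2b10 difference was not tested.

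Cyp2c55, a fatty acid hydroxylase that is also induced through CAR and PXR, divided the Ager null livers. Ager null 1, 2 and 3 had 5.92, 6.27 and 6.10, and Ager null 4, 5 and 6 had 8.82, 9.03 and 7.81. All 13 livers of the other genotypes lay between 7.84 and 8.76, so the Ager null group reached both below and above them. The Ager null mean differed from WT by -0.72 ± 0.47 (adjusted p = 0.381, limma). The same 3 livers held the lowest Ager null values of Cyp3a44 (3.50, 2.55 and 2.87, against 3.87, 3.67 and 4.63), of Cyp3a25 (13.34, 13.39 and 13.29, against 13.82, 13.93 and 13.91) and of Cyp3a11 (13.93, 13.82 and 13.82, against 14.17, 14.24 and 14.06). For Cyp2b10 they were also the 3 lowest of the group. Cyp3a11 is the main PXR-induced P450 of mouse liver, and Cyp3a44 is known from female liver. Cyp3a13, also a tested Cyp3a gene, did not divide this way (11.66, 11.46 and 11.59, against 11.87, 11.61 and 11.86). The split of the Ager null livers was seen after the values were plotted and has no test. How many of all genes or members split this way was not counted. Ager null 1, 2 and 3 carry S numbers 13, 14 and 15, and the other Ager null livers 16, 17 and 19. The within-group SD of Cyp2b10 was 0.88 and that of Cyp2c55 0.85, at percentiles 99.2 and 99.1 of all tested genes, where the median gene had 0.27.

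**Figure D2:**
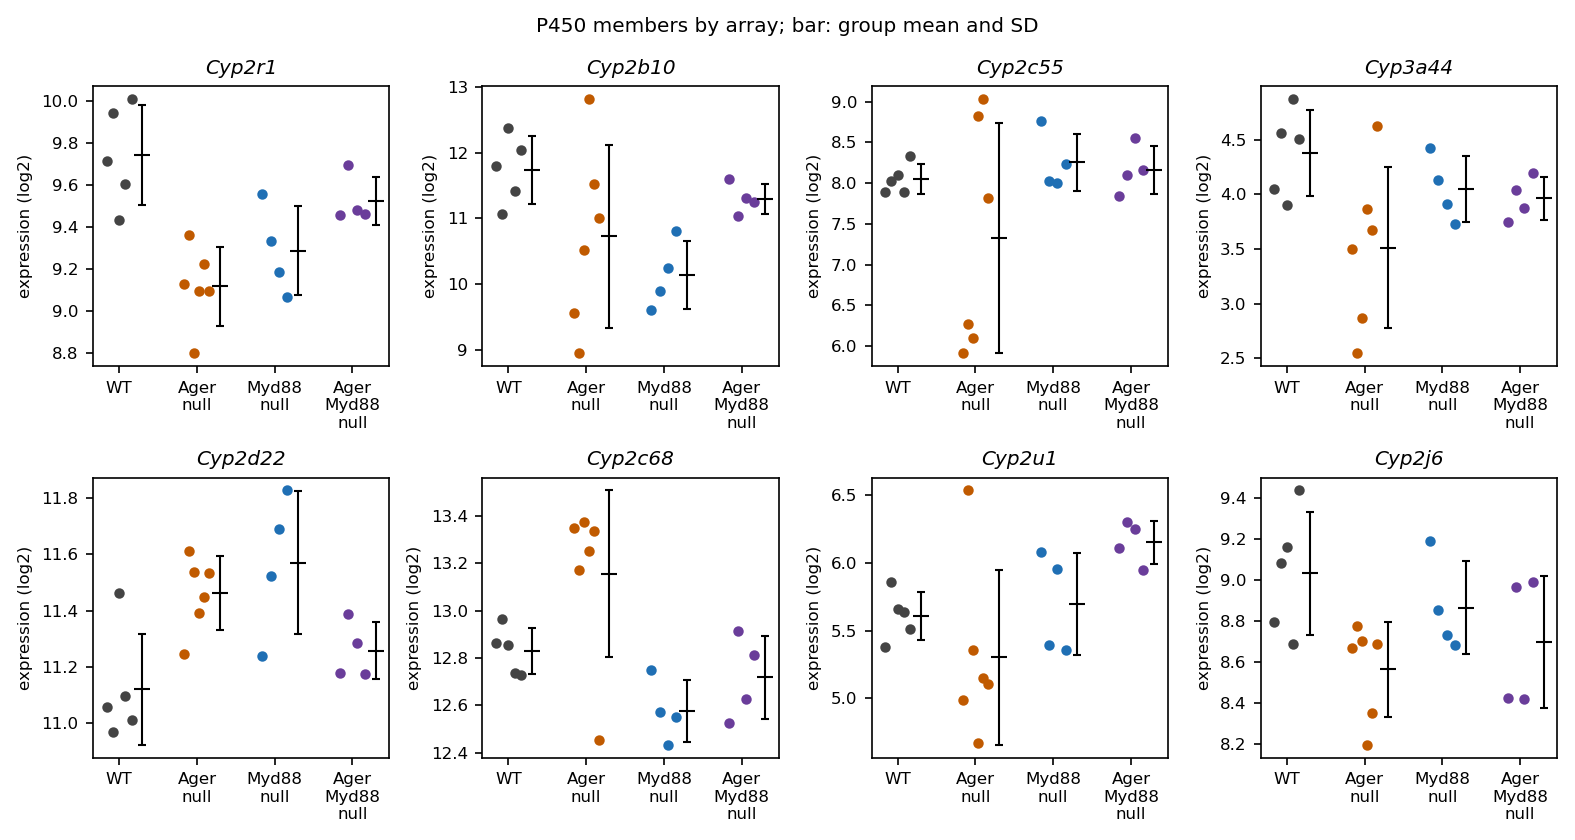
Log2 expression (y axis) of 8 members on each of the 19 arrays by genotype (x axis), with 1 point per liver and the mean and SD of each group drawn beside them. Cyp2r1 is lower in all 6 Ager null livers than in any WT liver, and Cyp2b10 and Cyp2c55 have their widest spread in the Ager null group, from 8.95 to 12.82 and from 5.92 to 9.03.

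Cyp3a44 differed from WT by -0.87 ± 0.28 in Ager null (adjusted p = 0.101, limma), with WT values of 4.05, 4.56, 3.91, 4.88 and 4.51 that overlap with the highest Ager null value of 4.63. Without Ager null 6 the difference was -1.09 (adjusted p = 0.0348, limma). Over the fits with 1 liver left out, the adjusted p (limma) of Cyp3a44 there ran from 0.0348 to 0.207. Its values lie near the filter, and with values under log2 4 set to 4 the difference was -0.29. The other Cyp3a genes differed from WT by less in Ager null: -0.15 ± 0.10 for Cyp3a11, 0.03 ± 0.10 for Cyp3a13 and -0.22 ± 0.12 for Cyp3a25, with adjusted p of 0.362 or more in limma for Cyp3a11 and Cyp3a13 and 0.313 for Cyp3a25. Cyp3a13 in the double null livers, at 11.66, 11.42, 11.33 and 11.37, differed from Myd88 null by -0.25 ± 0.11 (adjusted p = 0.301, limma), and the groups overlapped.

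Among the Cyp2d genes, Cyp2d22, often compared with human CYP2D6, had the second smallest adjusted p of the members in the interaction. Its values were 11.06, 10.97, 11.46, 11.10 and 11.01 in WT and 11.24, 11.52, 11.69 and 11.83 in Myd88 null. Ager null values ran from 11.24 to 11.61 with a median of 11.49, and double null values were 11.18, 11.39, 11.28 and 11.18. WT 3 overlaps with both single null groups and no other WT liver does. Differences from WT were 0.34 ± 0.11 in Ager null (adjusted p = 0.108), 0.45 ± 0.13 in Myd88 null (adjusted p = 0.0898) and 0.14 ± 0.13 in double null (adjusted p = 0.814), all by limma. The interaction of -0.65 ± 0.17 missed the threshold (adjusted p = 0.0518, limma), and the other Cyp2d22 probe set gave -0.46. Without WT 3, limma called it in Ager null minus WT (0.43, adjusted p = 0.046), in Myd88 null minus WT (0.54, adjusted p = 0.0473) and in the interaction (-0.74, adjusted p = 0.0279). The interaction also passed without Myd88 null 1 (adjusted p = 0.00719) or Ager null 1 (adjusted p = 0.0412), in limma. Over all fits with 1 liver left out, the adjusted p (limma) ran from 0.046 to 0.23 in Ager null minus WT. It ran from 0.0114 to 0.309 in Myd88 null minus WT and from 0.00719 to 0.123 in the interaction. Cyp2d26 in Myd88 null differed from WT by 0.20 ± 0.09 (adjusted p = 0.238, limma), and by 0.08 with each array centred on its median. Cyp2d9, a male-biased testosterone hydroxylase, differed by 0.11 ± 0.08, 0.01 ± 0.08 and 0.01 ± 0.08 in Ager null, Myd88 null and double null, and Cyp2d10 by 0.12 ± 0.08, 0.02 ± 0.08 and 0.05 ± 0.08.

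In the Cyp2c subfamily, many of whose members oxidize arachidonic acid, limma called 0 of 9 tested genes in every comparison. Cyp2c68 came nearest. It was between 12.73 and 12.96 in WT, at 12.75, 12.57, 12.43 and 12.55 in Myd88 null and at 12.52, 12.91, 12.62 and 12.81 in double null. In Ager null, 5 livers had 13.17 to 13.38 and Ager null 6 had 12.45. Those 5 lay over all 13 livers of the other genotypes, and the sixth lay under every WT liver. Ager null minus Myd88 null was 0.58 ± 0.15 (adjusted p = 0.063, limma), and without Ager null 6 it was 0.72 (adjusted p = 0.00087, limma). Ager null minus WT was 0.33 ± 0.14 (adjusted p = 0.189, limma) and double null minus Ager null -0.44 ± 0.15 (adjusted p = 0.107, limma). Neither of these passed. Without Ager null 6 they were 0.47 (adjusted p = 0.0269, limma) and -0.58 (adjusted p = 0.01, limma). Over all fits with 1 liver left out, the adjusted p (limma) ran from 0.00087 to 0.15 in Ager null minus Myd88 null. In double null minus Ager null it ran from 0.01 to 0.276. With each array centred on its median, Ager null minus Myd88 null was 0.66 (adjusted p = 0.0393, limma). Over the alternatives that keep every array, its adjusted p (limma) ran from 0.0091 to 0.0911. That of double null minus Ager null ran from 0.0242 to 0.368.

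Cyp2c37 was 13.36 to 13.49 in WT and 13.55, 13.71, 13.52 and 13.64 in Myd88 null, a gap without overlap but a difference of only 0.19 ± 0.10 (adjusted p = 0.311, limma). In Myd88 null minus WT, 2 of 29 members (Cyp2b10 and Cyp2c37) did not overlap, where 4.52% of all genes did not. Cyp2c38 in Ager null differed by -0.69 ± 0.26 from Myd88 null (adjusted p = 0.208, limma), and by -0.42 without Myd88 null 4. Cyp2c70, which makes the muricholic acids of mouse bile, differed by 0.28 ± 0.14 in the same comparison (adjusted p = 0.345, limma), by 0.16 without Myd88 null 4 and by 0.50 with the S number block. Cyp2c29 and Cyp2c50 differed from WT by 0.07 or less in size in all 3 null groups.

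The Cyp2j genes also oxidize arachidonic acid. Cyp2j6 was 8.80, 9.08, 9.16, 8.69 and 9.44 in WT and 8.20 to 8.78 in Ager null, with a median of 8.68, and the groups overlap. Its difference from WT was -0.47 ± 0.16 in Ager null (adjusted p = 0.113, limma) and -0.33 ± 0.18 in double null (adjusted p = 0.644, limma). A second Cyp2j6 probe set, over log2 4 on all arrays, gave -0.21 and -0.14. Cyp2j5 was 13.17 to 13.29 in WT and 13.09, 13.12, 13.01 and 13.08 in double null, without overlap, at a difference of -0.16 ± 0.08 (adjusted p = 0.612, limma) that was -0.26 with median centring. On its second probe set, over log2 4 on all arrays, the groups overlapped, with 9.50 to 10.68 in WT and 9.41 to 10.14 in double null.

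Cyp2u1, a fatty acid hydroxylase, was 5.38, 5.86, 5.66, 5.64 and 5.51 in WT and 6.11, 6.30, 6.25 and 5.95 in double null, again without overlap. The difference was 0.54 ± 0.27 (adjusted p = 0.601, limma). In double null minus WT, 2 of 29 members (Cyp2j5 and Cyp2u1) did not overlap, where 3.81% of all genes did not. In Ager null, 5 livers had 4.67 to 5.36 and Ager null 2 had 6.54, and double null minus Ager null was 0.85 ± 0.26 (adjusted p = 0.0812, limma). Without Ager null 2 it was 1.10 (adjusted p = 0.00446, limma) and the interaction passed as well (1.01, adjusted p = 0.0439, limma). Over all fits with 1 liver left out, the adjusted p (limma) ran from 0.00446 to 0.222 and from 0.0439 to 0.357. The other probe set of Cyp2u1 was under log2 4 on all arrays. With the mean of both, the differences were 0.23 in double null minus WT, 0.49 in double null minus Ager null and 0.48 in the interaction, and with the S number block the interaction was 0.47.

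For the best-studied enzymes of hepatic drug metabolism, group means lay close together. Cyp2e1, which oxidizes ethanol and paracetamol around the central vein, was 14.68 ± 0.05 (SD, n = 5) in WT, 14.72 ± 0.07 (n = 6) in Ager null, 14.63 ± 0.10 (n = 4) in Myd88 null and 14.68 ± 0.04 (n = 4) in double null. Cyp1a2, which clears caffeine, was 13.38 ± 0.12, 13.56 ± 0.28, 13.46 ± 0.14 and 13.35 ± 0.13 in the same order. Cyp3a11 was 14.16 ± 0.10, 14.01 ± 0.18, 14.10 ± 0.15 and 14.13 ± 0.05. Cyp2f2, a naphthalene-oxidizing enzyme of hepatocytes near the portal vein and of lung, was 13.72 ± 0.09, 13.81 ± 0.11, 13.71 ± 0.18 and 13.66 ± 0.02. Cyp1a1, which AhR induces strongly, was over log2 4 on 5 of 19 arrays and at most 4.42, with differences from WT of 0.01 ± 0.19, -0.01 ± 0.21 and 0.20 ± 0.21. None of these 5 genes passed in any of the 7 comparisons by limma. Cyp1a1 and Cyp1a2 lie on chromosome 9, as Myd88 does.

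Over the 17 members above log2 12 on all arrays, fitted differences from WT lay between -0.22 and 0.33 in Ager null, -0.25 and 0.20 in Myd88 null and -0.16 and 0.18 in double null. Their within-group SDs were 0.07 to 0.23 with a median of 0.11, and the median of all 477 genes above log2 12 on all arrays was also 0.11, against 0.27 for all tested genes. Values that high, like those of Cyp1a1 near the filter, can hide a change. The other 12 tested members had SDs of 0.14 to 0.88 with a median of 0.30. Over all 29, 17 differences were above 0 and 12 below in Ager null, with a median of 0.02 against 0.02 for all genes. In Myd88 null 14 were above 0 and 15 below, with a median of -0.0034 against 0.06 for all genes, and in double null 12 were above and 17 below, with a median of -0.03 against 0.07. The 3 comparisons share the WT livers.

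**Figure D3:**
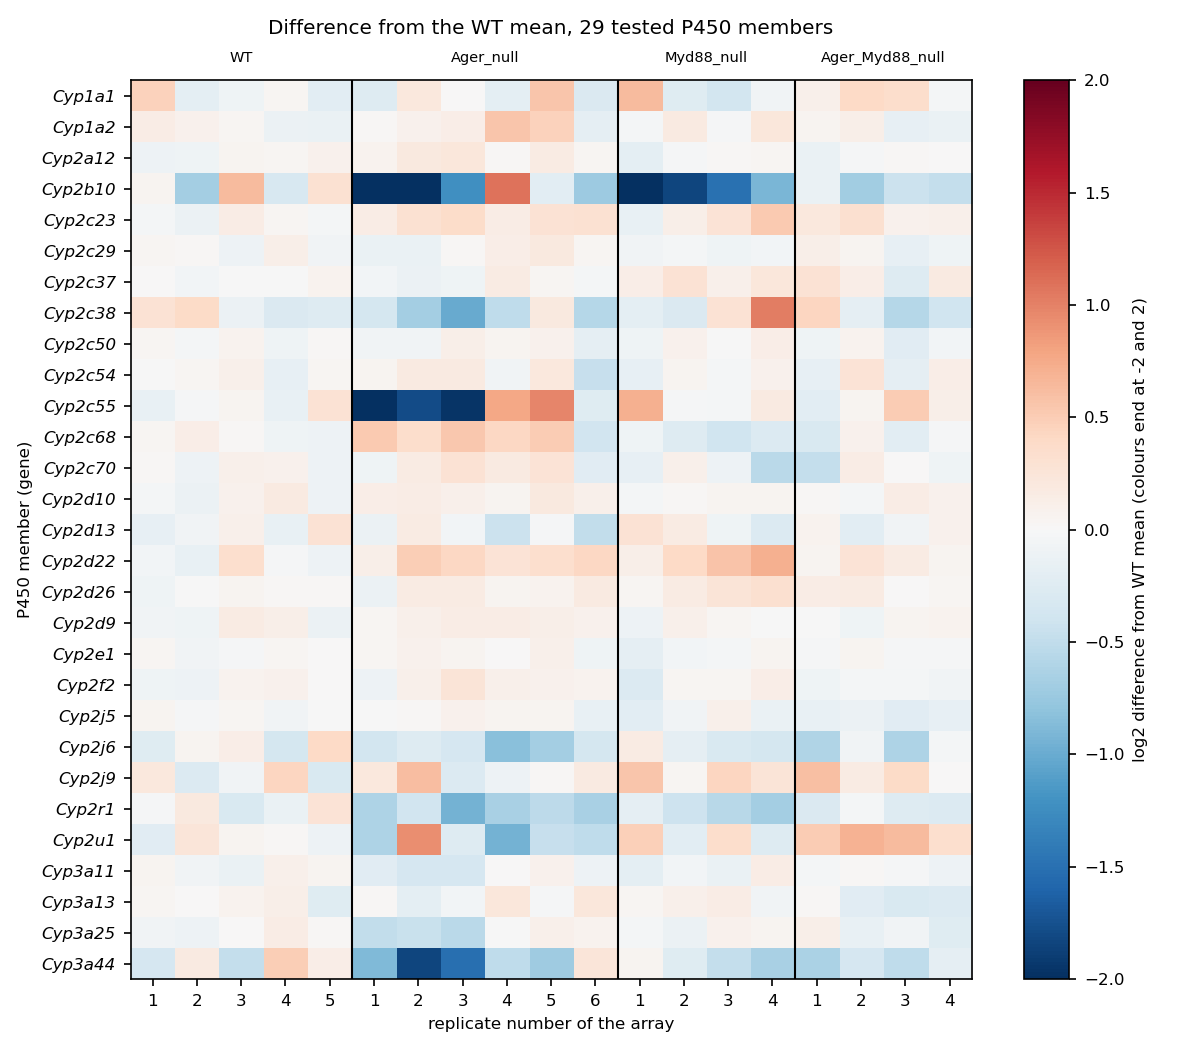
Difference of each liver (x axis, replicate number within genotype) from the WT mean for the 29 tested members (y axis), in log2, with red above and blue below WT and colours ending at -2 and 2. Most cells are pale, and the deep blue cells are Cyp2b10 in Ager null 1 and 2 and Myd88 null 1 to 3, Cyp2c55 in Ager null 1, 2 and 3 and Cyp3a44 in Ager null 2 and 3.

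Genes that supply or control the P450 enzymes were read from lists. Of 5 tested redox partners, which include cytochrome b5 (Cyb5a), limma called 0 in each of the 7 comparisons, and Cyb5a was 13.96 ± 0.05 in WT and 13.90 ± 0.05 in Ager null. Of 11 tested genes of haem synthesis and breakdown, limma called 1, in double null minus Ager null, where 2.44% of all tested genes were called. That was biliverdin reductase B (Blvrb), at 0.52 ± 0.14 (adjusted p = 0.0497, limma). Its groups overlap, and the call was lost in 15 of 19 fits with 1 liver left out. Alas1, the rate-limiting enzyme of haem synthesis, was 12.93 ± 0.32 in WT, 13.01 ± 0.16 in Ager null, 12.79 ± 0.41 in Myd88 null and 12.73 ± 0.18 in double null.

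Of 26 tested regulators of P450 genes, limma called 1, in the interaction, where 2.41% of all tested genes were called. Rxra encodes the partner that CAR and PXR need to bind DNA. It was 9.77, 9.75, 9.96, 9.95 and 9.85 in WT and 9.98, 10.59, 10.66 and 11.14 in Myd88 null. Ager null values ran from 10.15 to 10.60 with a median of 10.42, and double null values were 10.35, 10.13, 9.85 and 9.83. Each Rxra value of the single null groups thus lay over every WT value, while double null overlapped with WT. Against WT, 3.7% of all genes did not overlap in Ager null and 4.52% in Myd88 null. The interaction was -1.08 ± 0.25 (adjusted p = 0.0366, limma). Differences from WT were 0.53 ± 0.16 in Ager null (adjusted p = 0.0834, limma) and 0.73 ± 0.18 in Myd88 null (adjusted p = 0.0638, limma). With the mean of all Rxra probe sets the interaction was -0.40 (adjusted p = 0.0833, limma), with the S number block -0.72 (adjusted p = 0.363, limma), and without 1 liver its adjusted p ran from 0.00319 to 0.0961. In the interaction 18 of 26 regulators were below 0 with a median of -0.35, against -0.02 for all genes. Hlf, a circadian activator of P450 genes, had the next smallest p there (-1.35 ± 0.37, adjusted p = 0.0556, limma). Nr1i3 was 9.90 ± 0.10 in WT, 9.68 ± 0.25 in Ager null, 9.75 ± 0.19 in Myd88 null and 9.82 ± 0.02 in double null, and its differences from WT did not pass (adjusted p of 0.279, 0.524 and 0.907, limma).

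**Figure D4:**
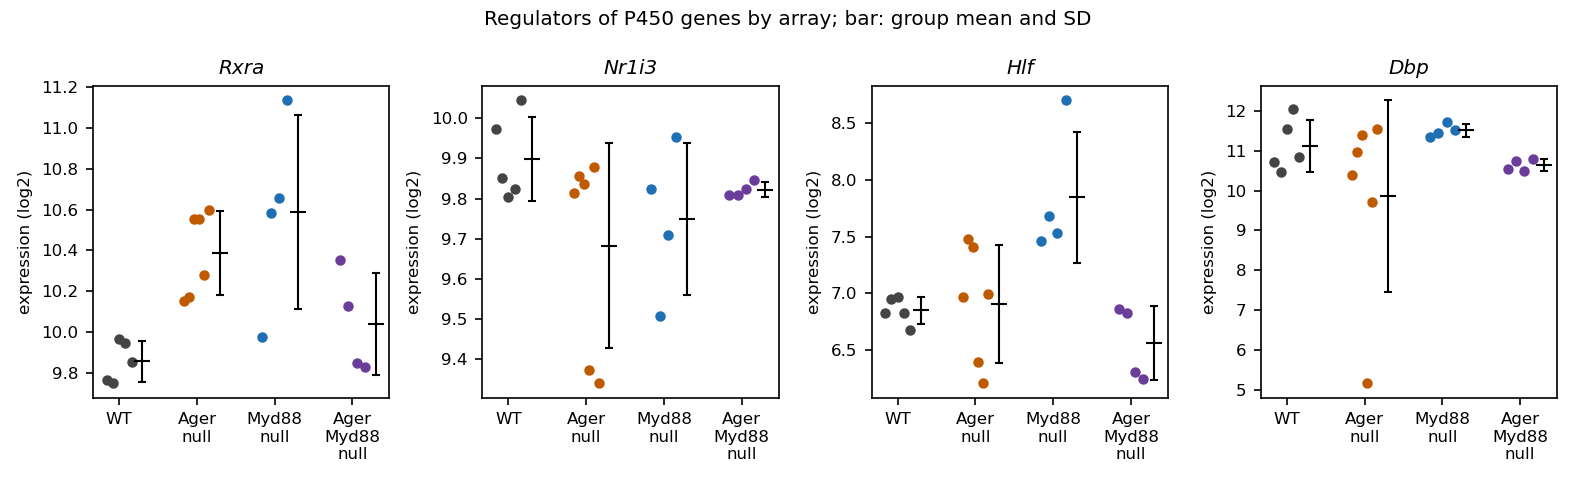
Log2 expression (y axis) of 4 regulators of P450 genes on each array by genotype (x axis), with 1 point per liver and the group mean and SD as a bar. Rxra and Hlf are highest in Myd88 null, at means of 10.59 and 7.85, and Dbp is at 5.15 in Ager null 4 and at least 9.72 on the other arrays.

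Of 8 tested targets of AhR, CAR or PXR outside the P450 families, limma called 1, in Ager null minus Myd88 null, where 1.26% of all genes were called. Slco1a4, a hepatic uptake transporter, was lower in Ager null than in Myd88 null (-1.42 ± 0.31, adjusted p = 0.0322), with Ager null values of 6.90 to 8.22 and Myd88 null values of 8.65 to 9.48. The call was lost with the S number block, at a difference of -1.60 (adjusted p = 0.0528), and its adjusted p ran from 0.014 to 0.0901 without 1 liver. Of 9 pericentral genes 0 were called in any comparison, and of 10 periportal genes 1, Cdh1, in Ager null minus Myd88 null (1.26% of all genes). Cdh1 differed there by 0.55 ± 0.13 (adjusted p = 0.0401, limma), a call lost in 8 of 19 fits with 1 liver left out. Of 8 sex-biased genes outside the families, 1 was called, in double null minus Ager null (2.44% of all genes): Cyp17a1, a steroid hydroxylase and itself a P450 of another family. Cyp17a1 differed there by -1.09 ± 0.28 (adjusted p = 0.0475, limma). With values under log2 4 set to 4 its difference was -0.42, and most of its values lie near or under the filter. With 1 liver left out it stayed over the filter in 15 fits, and the call was lost in 11 of them. Of 18 tested P450 genes of other families, Cyp17a1 was the only call, in the 7 comparisons by limma.

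Of 14 tested inflammatory and acute phase genes, limma called 1, Lbp, which encodes the protein that hands lipopolysaccharide to its receptor. It was lower in double null than in Ager null (-0.70 ± 0.16, adjusted p = 0.0392, limma), where 2.44% of all genes were called. Its interaction was -0.95 ± 0.24 (adjusted p = 0.0466, limma), where 2.41% of all genes were called. With the mean of its probe sets neither passed (-0.52 and -0.62), and with 1 liver left out the calls were lost in 8 and 14 of 19 fits. Of 10 tested endothelial and stellate cell markers, 9 had a higher mean in Ager null than in WT (median 0.41, against 0.02 for all genes). There limma called 1 of the 10, Col1a2, a fibrillar collagen gene (0.72 ± 0.15, adjusted p = 0.0357), where 1.26% of all genes were called. Whether this call holds under the alternatives was not followed. Limma also called 1 of the 10 lower in double null minus Ager null (2.44% of all genes) and 1 higher in Ager null minus Myd88 null (1.26%). The mean level of the list ranged from 5.99 to 6.46 in Ager null and from 5.61 to 6.11 in WT. In double null minus Myd88 null, the other comparison on loss of Ager, 4 of 10 were higher (median -0.05), and in Myd88 null minus WT 8 of 10 were. Their part in the Cyp2r1 difference was not tested.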

How the data were processed

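Liver RNA was measured on 19 Affymetrix arrays, taken as 1 per mouse because nothing in the labels says otherwise. The number of arrays limits the precision. The authors deposited log2 values per probe set, made with GCRMA 2.16 per the submitters' processing notes; its further settings are not stated there. Biotin-labelled RNA was made with an Affymetrix kit that primes at the 3' end, per the labels' protocols. Probes of closely related P450 genes can share signal.

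From these values, a gene was read from 1 single-symbol probe set, the one of highest mean level (34945 probe sets had 1 symbol, 932 several and 9160 none). Genes over log2 4 on at least 4 arrays (8515) entered 1 fit of 4 groups in limma 3.58.1 (R 4.3.3, lmFit and eBayes), two-sided, with Benjamini-Hochberg adjustment over all tested genes in each of 7 comparisons. As a check of the code, the fit was run on simulated independent normal values with changes in Ager null only. That run does not bear on the interaction or on the S number. The interaction is (double null minus Ager null) minus (Myd88 null minus WT). Errors are SEs of the fit for differences and SDs for means. Lists (8 pathway, 6 marker) are given as counts and medians.

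Members named are those called, the 10 with the highest mean, the 4 with the smallest p in each comparison, and Cyp1a1, Cyp1a2, Cyp2e1, Cyp2f2, Cyp2d9 and Cyp3a11; other members appear in ranges, for detection or beside their subfamily. Of pathway list genes, the called ones are named. Those shown beside them as context (Cyb5a, Alas1, Nr1i3, Dbp), like Cyp2c55 and Cyp2c29 among the members, were chosen after their values were seen. The members and lists were chosen with earlier results of these data known. Promoter windows come from RefSeq, GRCm38.p6, matched by symbol. Alternatives covered scaling, probe sets, filters, S number range, replicate number and each array left out. Replicate numbers did not pair the arrays.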

Additional observations from a re-analysis of the deposited data

Results flagged for a closer look

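In 5 of the 88 combinations of a tested member and a group of 4 to 6 livers that were checked, 1 liver stood far from the rest of its group; chance alone flags about 1 in 20 groups, so 5 of 88 is about what chance gives. Cyp2c68 was 12.45 in Ager null 6 against 13.17 to 13.38 in the other 5 livers. Cyp2d22 was 11.46 in WT 3 against 10.97 to 11.10. Cyp2e1 was 14.74 in double null 2 against 14.66 to 14.67. Cyp2r1 was 9.70 in double null 2 against 9.46 to 9.48. Cyp2u1 was 6.54 in Ager null 2 against 4.67 to 5.36.

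Cyp2r1 was also marked because its interaction passed the test, at 0.86 ± 0.19 (log2, SE, adjusted p = 0.0357, limma). This call was lost with the S number block (adjusted p = 0.142, limma) and in 9 of 19 fits with 1 liver left out. Loss of Myd88 went with -0.46 ± 0.14 in mice with Ager and 0.41 ± 0.13 in mice without it. Neither of these passed (adjusted p = 0.105 and 0.0954, limma).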

How the results depend on the processing

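Under the alternatives, none of the 28 differences of named members reversed. In the fits on all 19 arrays 216 kept their side of the threshold, 5 passed newly and 2 lost their call. With 1 array left out 507 kept it, 13 passed newly and 12 lost it. Only Cyp2r1, in Ager null minus WT and in the interaction, was called in the main fit, so most of those kept are differences that stayed uncalled. With 1 array left out, its calls were lost in 3 and 9 of 19 fits. The number of called members in Ager null minus WT, 1 in the report, was 0 with the S number range as a block. In the interaction it was 0 with that block and 2 with a filter of log2 6, which adds Cyp2d22. With each array centred on its median it was 1 in Ager null minus Myd88 null (Cyp2c68). With 1 array left out the counts ran from 0 to 3 in Ager null minus WT, 0 to 2 in Myd88 null minus WT and in the interaction, 0 to 1 in double null minus Ager null and in Ager null minus Myd88 null, and were 0 to 0 in double null minus WT and double null minus Myd88 null. The 3 calls came without Ager null 6 (Cyp2c68, Cyp2r1 and Cyp3a44), and the 2 in Myd88 null minus WT without Myd88 null 1 (Cyp2d22 and Cyp2r1). The cause was not tested.

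With the replicate number as a block, which in effect drops Ager null 6 because no other group has that number, called members were 3 in Ager null minus WT, 1 in double null minus Ager null and 1 in Ager null minus Myd88 null. Arrays of the same number did not deviate together (correlations of -0.30 to 0.47, median 0.05, over 25 pairs, against a median of 0.005 over 109 other pairs), so the numbers were not taken as pairs.

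Counts over all genes moved more. The interaction had 205 called genes, 0 with the S number block, 37 with the replicate block, 76 with no filter, and 0 to 1750 with 1 array left out. Ager null minus WT had 107, 59 with the S number block, 43 with no filter and 16 to 404 with 1 array left out. Myd88 null minus WT had 34, 86 with the S number block, 11 with quantile normalization, 12 with median centring or the log2 6 filter, and 10 to 986 with 1 array left out. Double null minus WT had 27, 46 with the replicate block, 18 with the log2 6 filter and 18 to 34 with 1 array left out. Double null minus Ager null had 208, 120 and 138 with the 2 blocks, 91 with no filter and 18 to 368 with 1 array left out. Ager null minus Myd88 null had 107, 386 with the S number block and 30 to 179 with 1 array left out. Double null minus Myd88 null had 13, 5 and 3 with the 2 blocks and 2 to 445 with 1 array left out.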

Other observations

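Cyp2a5 and Cyp2a4 share a probe set and so fall outside the member rule. Cyp2a5 is the coumarin hydroxylase of mouse liver and Cyp2a4 a steroid hydroxylase known from female liver, and the probe set cannot tell them apart. The probe set was looked at after the data were seen. Its value was 13.93 to 14.23 in WT, 13.47 to 13.91 in Ager null, 14.09 to 14.47 in Myd88 null and 13.89 to 14.13 in double null. Ager null thus lay under WT, by a narrow gap, and under Myd88 null without overlap. Of the 8515 tested genes, 3.7% and 3.92% did not overlap in these comparisons. In a fit of 8966 features that adds the probe sets with several symbols, it was lower in Ager null than in Myd88 null (-0.61 ± 0.10, adjusted p = 0.00579, limma), where 1.28% of features were called. This call held with the replicate block (-0.67, adjusted p = 0.00881) and with any 1 array left out (adjusted p of 0.00253 to 0.028). With the S number block the difference was -0.74 (adjusted p = 0.00523, limma). That block can hardly separate S number from genotype here, as only WT 5 and Myd88 null 4 share the range of the Ager null arrays. In the fit of 8515 genes, it raised the calls in this comparison from 107 to 386. Against WT the difference was -0.45 ± 0.10 (adjusted p = 0.037, limma), where 1.37% of features were called. With the S number block the difference was -0.56 and did not pass (adjusted p = 0.0548), and its adjusted p ran from 0.024 to 0.108 with 1 array left out, lost without WT 1, 2, 4 or 5, Ager null 2, 3 or 4, or double null 4.

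The shared probe set of Cyp3a41a and Cyp3a41b, genes known from female liver, was 6.02 ± 0.30 (SD, n = 5) in WT and 5.37 ± 0.86 (n = 6) in Ager null, at 4.25 to 6.47 in the latter. Its difference from WT did not pass (-0.65 ± 0.31, adjusted p = 0.238, limma).

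Dbp, a circadian activator of P450 genes, was 5.15 in Ager null 4 and at least 9.72 in the other 18 livers. It was picked out after its values were seen. Cyp2b10 had its highest value of all 19 livers, 12.82, in the same liver.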
